A study of Mus musculus with 258 samples.

Results

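Around Trib2 and Lpin1 on mouse chromosome 12, 9 chromatin loops were listed, 7 in activated and 2 in resting B cells, of 6181 loops in all. They were chosen as every loop on chromosome 12 with the start of its left or right anchor between 15000000 and 17200000 (mm9), in 2 deposited lists of 4315 activated and 1866 resting loops. The region was picked for its long resting loops, so the number, length and state of its loops are given as a description, with no test. Hi-C joins DNA ends that lie close together in the fixed nucleus and counts the joined pairs as contacts. A listed loop joins a left and a right anchor, here pixels of 5 kb, with more contacts than the pixels around it.

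The activated cells were splenic B cells of WT C57BL6/J mice aged 6 to 8 weeks, cultured for 72 h with 50 µg/mL LPS, 2.5 ng/mL IL-4 and 0.5 µg/mL of an antibody against CD180. The resting cells (0 h) were the same kind of cell from mice of the same strain, genotype and age, without that treatment. Both were isolated by negative selection. The labels assign 26 in situ Hi-C libraries to the activated and 8 to the resting group, and each list comes from 1 pooled map, so there are no replicate values. Loop lists hold no expression values, so the B cell label was not checked against marker genes.

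Trib2 encodes a pseudokinase of the Tribbles family, a scaffold that brings the ubiquitin ligase COP1 to substrates such as the transcription factor C/EBP alpha, and its overexpression drives acute myeloid leukaemia in mice. Lpin1 encodes lipin 1, a phosphatidate phosphatase that makes diacylglycerol for lipid synthesis and also acts in the nucleus as a transcriptional coregulator. Loops of this length in mammalian cells are mostly formed by cohesin, which extrudes chromatin until it is held at CTCF sites. In a bulk map, a contact present in fewer cells and a contact made less often in each cell cannot be told apart.

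In the RefSeq annotation of GRCm38.p6, used only for names and order, the protein-coding genes run Mycn, Ddx1, Nbas, Lratd1, Trib2, Lpin1, Ntsr2, Greb1, E2f6, Rock2, Pqlc3, 2410004P03Rik, Kcnf1, Pdia6 and Atp6v1c2. Trib2 and Lpin1 are neighbours in this order, with 0 protein-coding genes between them, while 5 long non-coding RNAs, 1 pseudogene and 1 microRNA start between their starts. On the other side, 16 entries start between Lratd1 and Trib2, of which 0 are protein-coding. The choice of region placed Trib2 at about 15.8 Mb and Lpin1 at about 16.6 Mb in mm9. No mm9 gene annotation was used here, so it is not stated whether an anchor lies in an exon, an intron or a promoter. The anchor near 15.8 Mb is called the Trib2-side anchor, and those from 16510001 to 16540000 the Lpin1-side anchors.

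The promoters of both genes are shown because the region is named for these genes and they differ in sequence make-up. They are RefSeq sequences of GRCm38.p6 (250 bases before to 50 after the start), at chr12:15816736-15817035 for Trib2 and chr12:16610917-16611216 for Lpin1, both on the minus strand, and these coordinates cannot be set against the mm9 positions of the loops. Capitals mark each CG dinucleotide.
Trib2 promoter: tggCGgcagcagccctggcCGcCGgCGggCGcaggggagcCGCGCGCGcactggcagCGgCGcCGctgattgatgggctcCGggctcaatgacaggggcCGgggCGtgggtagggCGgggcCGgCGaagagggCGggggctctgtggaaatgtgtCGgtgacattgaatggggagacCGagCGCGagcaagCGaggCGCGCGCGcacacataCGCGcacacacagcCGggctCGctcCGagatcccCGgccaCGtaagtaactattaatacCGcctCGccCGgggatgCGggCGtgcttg
Lpin1 promoter: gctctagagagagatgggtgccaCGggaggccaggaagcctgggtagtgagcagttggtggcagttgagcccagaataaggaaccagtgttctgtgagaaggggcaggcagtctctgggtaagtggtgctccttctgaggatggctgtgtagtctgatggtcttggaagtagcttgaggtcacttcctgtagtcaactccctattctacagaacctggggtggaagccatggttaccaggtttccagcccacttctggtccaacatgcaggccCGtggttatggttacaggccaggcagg
The Trib2 promoter held 40 CG dinucleotides, more than 96.1% of 32851 listed promoters, and the Lpin1 promoter held 2, more than 14.1% of them. Their GC contents were 71.0% and 55.3%. The GC box GGGCGG, searched on both strands, was present in the Trib2 and not in the Lpin1 sequence, and 35.7% of all listed promoters hold it. The E box CACGTG, which Myc can bind and which reads the same on both strands, was in neither window and is in 7.15% of listed promoters. That says only that these letters are not in these windows.

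The Trib2 side and the Lpin1 side were joined by a listed loop in both states. In activated cells a loop of 715 kb ran from 15820001-15825000 to 16535001-16540000. In resting cells a loop of 690 kb ran from the same left pixel to 16510001-16515000. Their right anchors thus lay 25 kb apart, with a gap of 20 kb between them. Loops of the lists were called shared when each anchor, after adding 10 kb at both its sides, had 1 bp or more in common with the matching anchor so widened. That allows distances of up to 20 kb, and this pair was 1 pixel beyond it. Measured between the centroids of the merged pixels, the right ends were 16.7 kb apart and the left ends 0.833 kb apart, so this pair counts as shared by centroids, a measure added after the values were seen. Of all resting-only loops, 9.85% gained a partner in that way. Long loops were thus not a feature of the resting list alone here, since the longest activated loop of the region joined nearly the same positions as the shorter resting one.

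The Trib2 to Lpin1 loop had 63 contacts at its pixel in activated cells (exact Poisson 95% interval 48.4 to 80.6), against 44 in resting cells (32.0 to 59.1). These are raw counts, not corrected for the depth of the maps. The expected count from the donut-shaped surroundings was 20.1 in activated and 17.7 in resting cells, so the observed over expected ratio, called strength below, was 3.14 (2.41 to 4.01) in activated and 2.49 (1.81 to 3.34) in resting cells. The ratio of the strengths, activated over resting, was 1.26, with an exact conditional interval of 0.845 to 1.90 (log2 0.33, -0.24 to 0.92), which includes no change. It compares different right pixels. The intervals take the expected counts as fixed and cover counting error only. Against the other 3 backgrounds the log2 ratio was 0.15 (lower left), 0.04 (horizontal) and 0.37 (vertical).

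**Figure D1:**
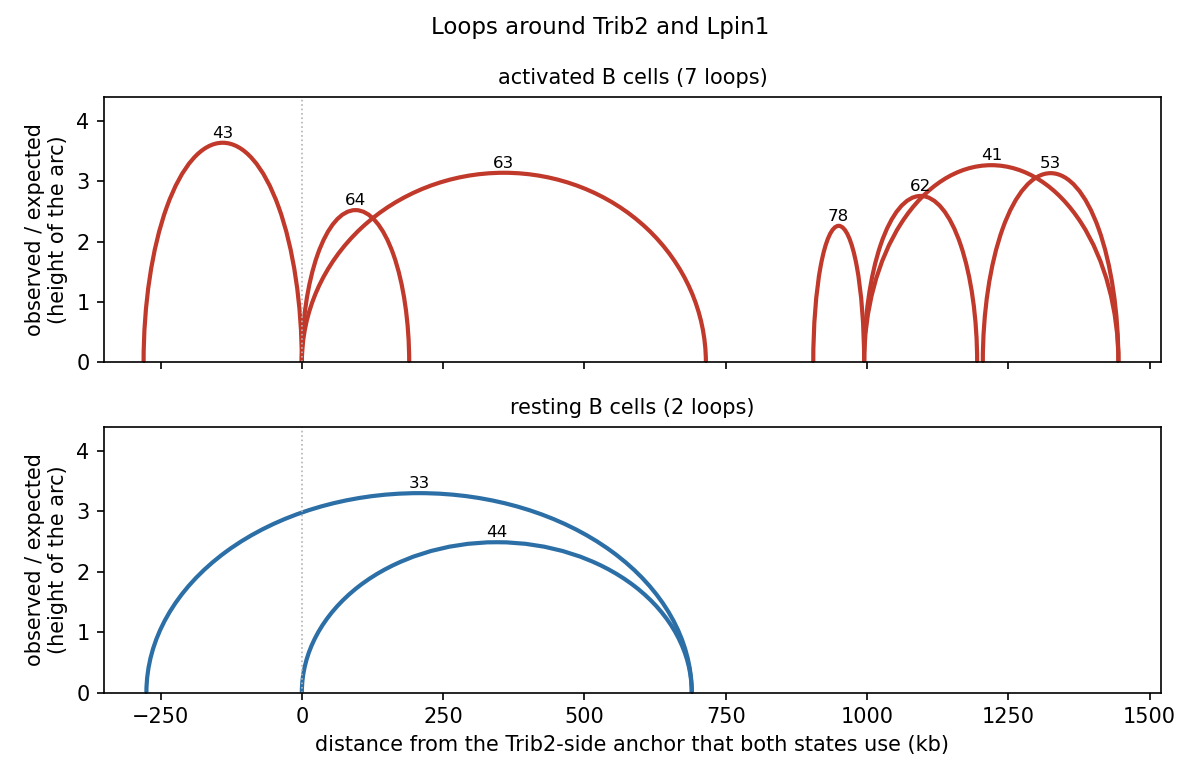
Loops around Trib2 and Lpin1 in activated (top, 7 loops) and resting cells (bottom, 2 loops). The horizontal axis is the distance in kb from the Trib2-side anchor used in both states, the height of an arc is the observed over expected count, and the number on it is the observed contact count. The arcs of 715 kb in activated and 690 kb in resting cells start at the same pixel and end 25 kb apart.

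The second resting loop was the longer one, and no loop across its span was listed in activated cells. It ran 965 kb, from 15545001-15550000 to the same Lpin1-side pixel, 16510001-16515000, as the 690 kb loop. It rested on 33 contacts (22.7 to 46.3) over an expected 10.0, a strength of 3.30 (2.27 to 4.63). Its left anchor was nevertheless in use in activated cells, where a loop of 280 kb ran from 15540001-15545000, 5 kb away, to the Trib2-side pixel. That activated loop had 43 contacts (31.1 to 57.9) over an expected 11.8, the highest strength of the 9 loops at 3.63 (2.63 to 4.90). In activated cells the 280 kb and 715 kb loops thus met at the Trib2-side anchor and together covered 15540001 to 16540000. In resting cells the listed loops both ended at the Lpin1 side and were nested, covering 15545001 to 16515000. The nearest activated loop to the 965 kb loop was the 715 kb one, whose left end lay 275 kb and right end 25 kb away. Between the centroids of their merged pixels, the right ends of these 2 loops were 6.67 kb apart. The contact count at the 965 kb pixel in activated cells is not in the lists, so a difference in contact there was not measured.

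Another activated loop left the Trib2-side anchor for a shorter range. It ran 190 kb, to 16010001-16015000, with 64 contacts (49.3 to 81.7) over an expected 25.4 and a strength of 2.52 (1.94 to 3.22). This call was a single enriched pixel. With it, the Trib2-side anchor held 3 activated loops, 1 to the left and 2 to the right, and 1 resting loop. Of the merged anchors used in activated cells, 5.44% held at least 3 loops. The Lpin1-side pixel at 16510001-16515000 held both resting loops, and 15.5% of merged resting anchors held at least 2. Of the 3 anchors used by the resting loops, 2 were in use in activated cells, against 74.3% of all resting anchors. The third, on the Lpin1 side, lay across a gap of 20 kb from the activated Lpin1-side anchor. Anchors were merged only within 10 kb.

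Beyond Lpin1, 4 further loops were listed in activated cells and none in resting cells. They joined 4 anchors between 16725001 and 17270000, a stretch of 545 kb in which no listed resting loop had an end. The activated list is the longer one, with 4315 loops against 1866. Windows of 2.2 Mb that held any listed loop had a median of 4 activated loops and 1 resting loop. Genome-wide, 71.7% of the activated list had no resting partner by the rule for sharing. Whether these 4 loops were gained on activation was not tested. In gene order Lpin1 is followed by Ntsr2 (a neurotensin receptor), Greb1 (an oestrogen-induced gene in human breast cancer cells), E2f6 (a repressor of the E2F family), Rock2, Pqlc3, 2410004P03Rik, Kcnf1 (a potassium channel subunit) and Pdia6 (a protein disulphide isomerase of the endoplasmic reticulum). Which of these genes lies at which anchor was not determined. The shortest loop, 90 kb from 16725001-16730000 to 16815001-16820000, had the most contacts of the region, 78 (61.7 to 97.3) over 34.5 expected, and the lowest strength, 2.26 (1.79 to 2.82). From 16815001-16820000 a loop of 200 kb reached 17015001-17020000 with 62 contacts over 22.5 expected, a strength of 2.75 (2.11 to 3.53). A loop of 450 kb from the same anchor reached 17265001-17270000 with 41 contacts over 12.6 expected, a strength of 3.26 (2.34 to 4.43). Like that of the 190 kb loop, this call was 1 enriched pixel. The last loop, 240 kb from 17025001-17030000 to 17265001-17270000, had 53 contacts over 16.9 expected, a strength of 3.13 (2.35 to 4.10). The 200 kb and 240 kb loops lay end to end beneath the 450 kb loop, and the pixels at which they met were merged into 1 anchor of 15 kb. The anchor at 16815001-16820000 was the other one with 3 activated loops.

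**Figure D2:**
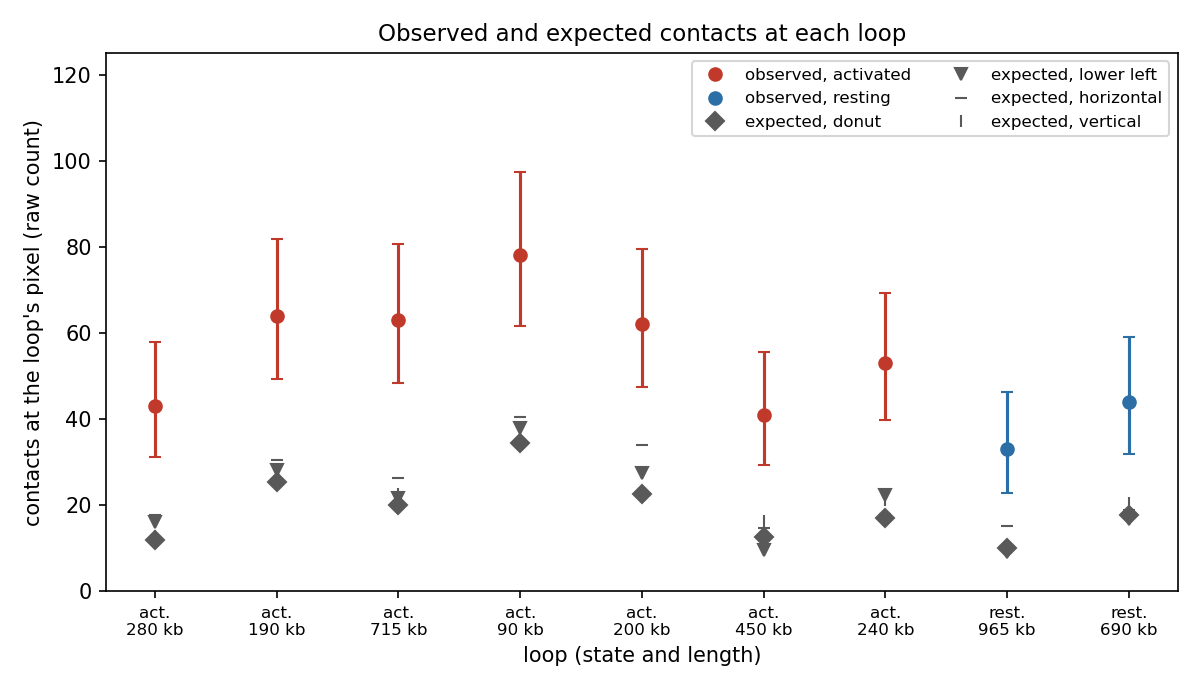
Contacts at the pixel of each of the 9 loops, with 7 activated loops left of 2 resting loops, each labelled by its length. Circles are observed raw counts with exact Poisson 95% intervals, and grey marks are the expected counts from the 4 local backgrounds. Every observed count lies above all 4 of its expected counts, by 1.83 times or more.

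Over the 7 activated loops the strength had a median of 3.13 and ranged from 2.26 to 3.63. The 2 resting loops, at 2.49 and 3.30, lay within that range. Activated lengths were 90 to 715 kb with a median of 240 kb, against 690 and 965 kb in resting cells. Listed activated loops near 90 kb long had a median strength of 2.53, and those near 715 kb one of 4.28. The region's loops differed in length between the states, so the overlap of their strengths does not compare the states. By the rule for sharing, 0 of 7 activated loops were called in resting cells and 0 of 2 resting loops in activated cells. In the whole lists 71.7% of activated and 34.8% of resting loops were not called in the other state, and for loops over 500 kb these shares were 84.7% and 29.2%. The region was chosen on such calls, so nothing is read from the members' counts. Of the region's loops, 1 of 7 activated and 2 of 2 resting ones were over 500 kb, against 7.14% of the activated and 3.48% of the resting list.

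Among listed long loops, those of this region had low observed over expected ratios. The activated 715 kb loop was weaker than 280 of the other 307 activated loops over 500 kb, while only 39 of them had more contacts and 9 a higher expected count. Likewise, the resting 690 kb loop was weaker than each of the other 64 resting loops over 500 kb, with 28 having more contacts and 7 a higher expected count. The 965 kb loop was weaker than 54 of those 64, with 45 having more contacts. The low strengths of the pair from the Trib2-side anchor went with high expected counts. The 715 kb loop had an expected count of 20.1, against a median of 8.21 over activated loops of 0.8 to 1.2 times its length. The 690 kb loop had 17.7, against 9.09 over resting loops in the same range of its own length. The lists hold only loops above the authors' limits, so these ranks are within called loops. They include chromosome Y, which held the strongest long resting loop (126.8) and the one with the most contacts (756).

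**Figure D3:**
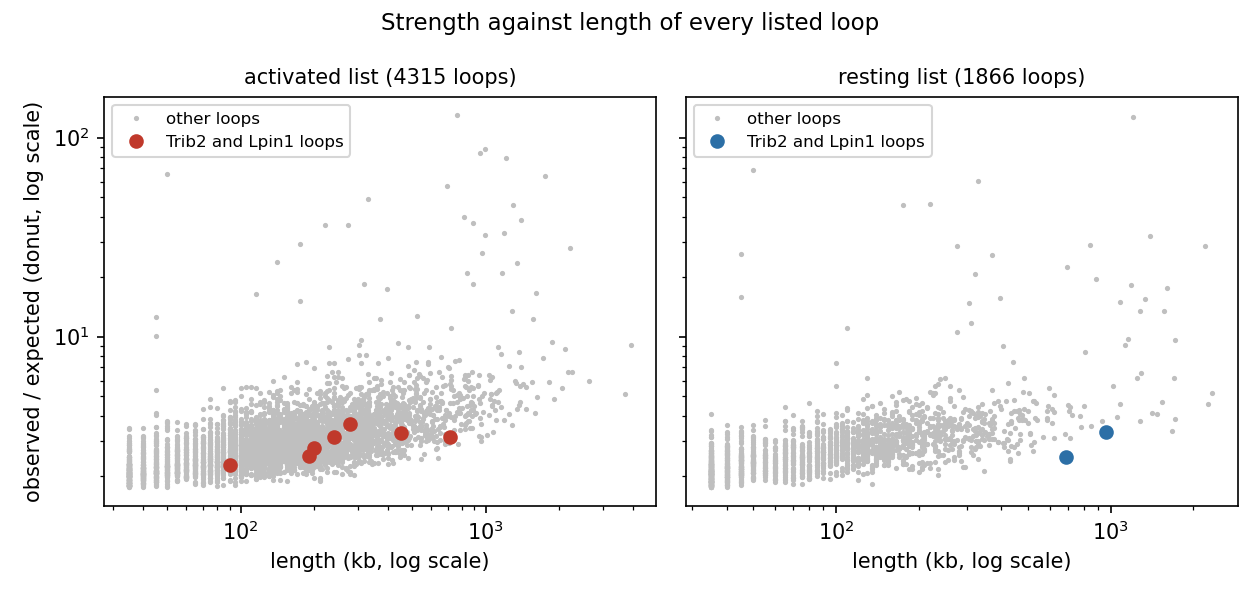
Strength (observed over donut-expected count) against length of every loop in the activated (left, 4315 loops) and resting list (right, 1866 loops), both axes on a log scale. Coloured points are the loops around Trib2 and Lpin1, and both resting ones lie at the lower edge of loops of their length.

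Both resting calls were among the least certain of their list. The highest of the 4 deposited q-values was 0.056 for the 690 kb loop (vertical background) and 0.055 for the 965 kb loop (horizontal background), and 10.1% and 10.8% of resting loops had a higher one. The activated 715 kb loop had a highest q-value of 0.00021, and 59.6% of activated loops had a higher one. With all 4 q-values held to at most 0.01, 5 of 7 activated loops and 0 of 2 resting loops of the region were left, against 74.2% of the activated and 65.5% of the resting list. Of loops over 500 kb, 77.9% of the activated and 73.8% of the resting ones passed. The activated loops that dropped out were those of 90 kb (0.011) and 200 kb (0.042). The activated calls merged 1 to 7 enriched pixels (median 3) and each resting call 2.

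The depth of the maps could be compared only through expected counts at loops. At the Trib2 to Lpin1 loops the expected count in activated cells was 1.14 times that in resting cells, and the observed count 1.43 times. At 1212 one-to-one pairs of shared loops in the genome, the expected count was a median of 1.55 times as high in activated cells, and at the 25 pairs of 500 to 1000 kb outside chromosome Y it was 1.23 times, with a range of 0.509 to 2.28. Over those 25 pairs the log2 ratio of strengths had a median of 0.23 (-0.31 to 0.72), and 8 of them lay above the 0.33 of the Trib2 to Lpin1 pair. When the observed and expected counts of the 7 activated loops were divided by 1.55, each still passed the lowest ratios and highest Poisson p-values found in the resting list. These are the loosest values of any resting loop for each background, and no counting noise was added. Passing them thus does not show that a loop would have been called. Whether depth accounts for their missing from the resting list was not tested.

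The left edge of the region lay far from the next listed loops, and the right edge did not. On the left the next activated loop had its right anchor at 13215001-13220000 and the next resting loop at 13220001-13225000, which start 1785 and 1780 kb outside the window. These were 1 pair called in both states, 790 kb long in activated and 800 kb in resting cells, with 28 and 27 contacts at strengths of 3.62 and 4.50. On the right the next activated loop, 180 kb long from 17375001 with 72 contacts at a strength of 3.33, began 175 kb outside, and the next resting loop, 130 kb long from 17560001 with 27 contacts at 3.03, began 360 kb outside. Neither of these was called in the other state. Within the window, the last anchors inside were at 17025001-17030000, and the loops from 16815001 and 17025001 reached past its right edge to 17270000.

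Long loops called in resting cells alone were few, at 19 in the genome, and 10 of them were on chromosome 13, with 2 each on chromosomes 12, 4 and 8. Both on chromosome 12 were the loops described here. Over windows of 2.2 Mb moved in steps of 200 kb, 37 of 13108 windows (0.282%) held at least 2 such loops, those that overlap this region included. Neighbouring windows overlap, so 1 group of loops is counted in many of them. The region was also picked for its long resting loops, so this share does not measure how rare it is. The non-overlapping windows elsewhere with the most such loops were both on chromosome 13. The first, from 21200000 to 23400000, held 5 activated and 13 resting loops, 9 of them long and resting-only. The second, from 23600000 to 25800000, held 7 activated and 14 resting loops, 4 of them long and resting-only. A loop with an end in each window counts in both, and all 4 of the second window are among the 9 of the first. Windows with 1 such loop were tied behind these and are not named. The Trib2 window held 1 activated loop over 500 kb, and both windows on chromosome 13 held 0.

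Of the 19, the 690 kb loop was 1 of 2 whose nearest activated loop had its farther end 25 kb away, the other being on chromosome 8 from 73655001 to 74360000. The median over the 19 was 750 kb, and 14 of the others had a distance as large as that of the 965 kb loop or larger. With anchors widened by 25 kb, 15.8% of these 19 loops and 25.5% of all 650 resting-only loops gained an activated partner, the 690 kb loop among them.

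**Figure D4:**
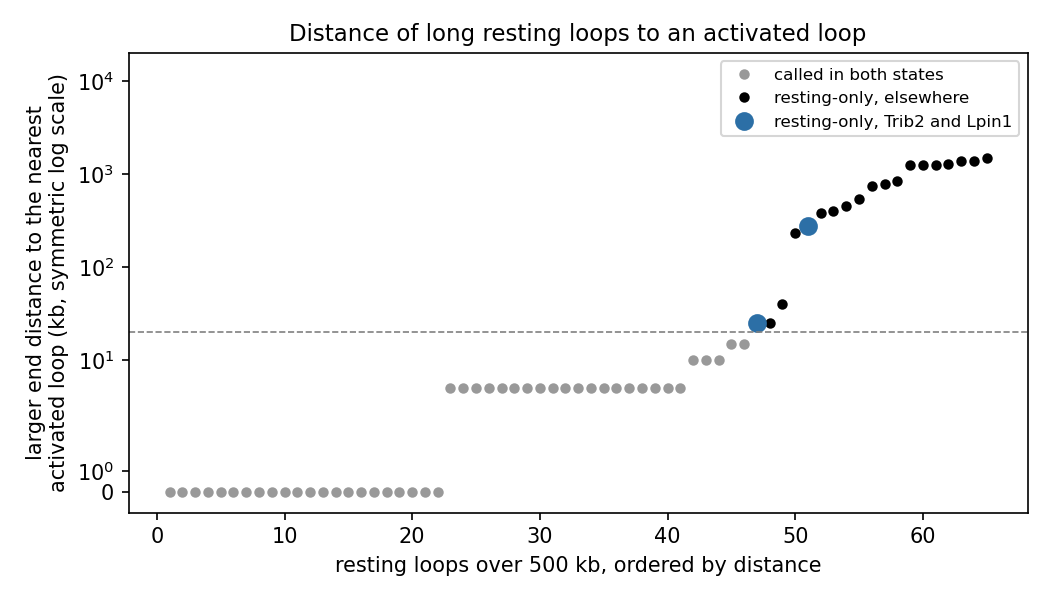
The 65 resting loops over 500 kb, ordered by the distance in kb from each to its nearest activated loop, taken as the larger of the distances at the left and right ends (symmetric log scale). The dashed line marks 20 kb, the largest distance allowed for a shared loop, and the large points are the Trib2 and Lpin1 loops at 25 and 275 kb.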

How the data were processed

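Loop lists of activated and resting B cells were used, 1 per state. Per the submitters' processing notes, BWA and Juicer were the tools named and mm9 the build. Loop caller: not given in the sources used here. An observed contact count (deposited as whole numbers, not normalized), a signal of expected contacts from 4 local backgrounds, and a q-value for each stand beside a loop, per the file headers. The activated list names no time and was taken as the 72 h state, the one activated wild-type map without inhibitor in the deposited description. Length was the distance between anchor midpoints. Positions are 1-based. Library depths are unknown here. The members, lists and rules were chosen with earlier results of these data known. Described in full were all 9 loops, and genes by their order around Trib2. Other windows were ranked by their number of resting-only loops over 500 kb. Matching was tried on simulated partner lists, with partners moved by less than the 20 kb limit. Distances at that limit or 1 pixel beyond it were not tried. Of the intervals, only that of a strength ratio was tried on simulated counts. Python 3.11.15, pandas 2.3.3, numpy 2.4.6 and scipy 1.17.1 were used. Another 59 Hi-C libraries and 165 of other assays were not used here.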

Additional observations from a re-analysis of the deposited data

How the results depend on the processing

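Of 64 alternatives tried on these counts and medians, 55 stayed within set limits and 9 did not. For median strengths the limits were the medians of the single loops' Poisson bounds, which are not an interval of the median. For the pair's ratio they were its own interval, and for the rest 1.5 times either way. With anchors widened by 25 kb, and with centroids in place of pixels, 1 activated and 1 resting loop were shared, against 0 each as reported. With all q-values at most 0.01 the resting loops, and those over 500 kb, numbered 0, and anchors with at least 2 loops in a state numbered 2, against 5. These followed from the tolerance and from fewer loops. With both anchor starts inside the window there were 3 such anchors. Genome-wide, 24.8% of merged anchors used in activated cells and 15.5% of those used in resting cells held at least 2 loops. Over 300 kb in place of 500 kb there were 2 activated loops, against 1. Thinning the activated counts to the resting depth estimated from expected counts, in 1 seeded draw, left 6 of 7 activated loops. A loop was kept if it passed the lowest ratios and highest Poisson p-values of any resting loop. Passing such loose limits does not show that a loop would have been called at that depth. The share of the whole activated list that passes is not given here. Centroids and a minimum of 2 merged pixels were chosen after the data were seen. By the rule as reported no shared loop was left, so a median strength ratio of shared loops has no value, and after the q-value limit the resting medians have none. The expected counts near 10 to 20 at the long loops, and 33 to 63 contacts, limit what differences in strength are detectable. No paired analysis was possible because each state has 1 pooled list.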
